A study of Mus musculus with 14 samples.

Results

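Cathepsins and legumain are proteases of the lysosome, and cystatin C (Cst3) is the main secreted inhibitor of the cysteine cathepsins. The genes described here were the rows of the deposited count table named Ctsa, Ctsb, Ctsc, Ctsd, Ctsh, Ctsk, Ctss, Ctsz, Lgmn and Cst3, 10 of 54532 genes in all. RNA had been sequenced from heart tissue of 14 male C57BL/6J mice of wild-type genotype, 1 library per mouse. IRR_1d (n = 3) and IRR_6w (n = 4) mice received 30 Gy of 60Co γ-rays at 8 weeks of age, given under pentobarbital anesthesia to the anterior chest with the rest of the body behind lead, and hearts were collected 1 day or 6 weeks later. Control_1d (n = 3) and Control_6w (n = 4) mice were not irradiated and were killed at the same times. Whether the controls were anesthetized is not given in the sources used here.

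In the lysosome, cathepsins are made as inactive proenzymes, sorted mostly through the mannose 6-phosphate receptor and activated at acid pH. They degrade proteins delivered by endocytosis, phagocytosis and autophagy. In antigen-presenting cells they also cut the invariant chain and antigens for loading on MHC class II molecules, and when secreted they can cut collagen and elastin. In the heart, macrophages are rich in cathepsins, while cardiomyocytes, fibroblasts and endothelial cells also make several of them.

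Among the cysteine endopeptidases, Ctss (ENSMUSG00000038642, chr3:95526786-95556403, + strand, mm10) encodes cathepsin S, which makes the late cut of the invariant chain and keeps activity at neutral pH. Its neighbour Ctsk (ENSMUSG00000028111, chr3:95499256-95509362, +) encodes cathepsin K, the collagenase of osteoclasts, and ends 17423 bases before Ctss starts. Ctsb (ENSMUSG00000021939, chr14:63122462-63145923, +) encodes cathepsin B, an abundant protease of most cells. Of the exopeptidases, Ctsc (ENSMUSG00000030560, chr7:88278085-88310888, +) encodes the dipeptidyl peptidase that activates granule serine proteases, Ctsh (ENSMUSG00000032359, chr9:90054152-90076089, +) an aminopeptidase, and Ctsz (ENSMUSG00000016256, chr2:174427493-174439039, −) a carboxypeptidase. Lgmn (ENSMUSG00000021190, chr12:102394084-102439813, −) encodes legumain, which cuts after asparagine and processes other cathepsins. Ctsd (ENSMUSG00000007891, chr7:142375911-142388038, −) encodes the aspartic protease cathepsin D, and Ctsa (ENSMUSG00000017760, chr2:164832873-164841032, +) a serine carboxypeptidase that protects neuraminidase and β-galactosidase. Cst3 is ENSMUSG00000027447 at chr2:148871722-148875692 on the − strand.

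In GENCODE M21, the exons of Ctsd shared 808 of 2351 bases with Gm49369 on the same strand. Exons of Ctsb shared 774 of 6051 bases, and exons of Ctsa 819 of 4715 bases, with genes on the opposite strand. For Ctsz 10 bases were shared, and for Ctsc, Ctsh, Ctsk, Ctss, Lgmn and Cst3 none. The sources used here do not say whether counting used strand, so the counts of Ctsa and Ctsb carry that uncertainty. The overlap of Ctsd lies on its own strand and leaves its count uncertain under either setting.

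Promoter windows of RefSeq (GRCm38.p6), from 250 bases before to 50 bases after an annotated start site, were at hand for 8 of the 10 genes. They are shown because regulators of lysosomal and of myeloid genes bind known letters. Each window was searched on both strands for CACGTG, the core of the sites bound by the lysosomal regulators TFEB and TFE3, for TCACGTGA, which contains CACGTG, and for GAGGAAGT, the letters of sites of the myeloid factor PU.1. Among all 32851 windows, 7.15% held CACGTG, 0.974% held TCACGTGA and 3.20% held GAGGAAGT. The 8 genes had 10 windows, and these shares are per window. GAGGAAGT stood in the windows of Ctss and Ctsc, TCACGTGA in those of Ctsd and Ctsa, and CACGTG in those of Ctsd, Ctsa and Lgmn. For Ctsa and Lgmn, a further window at the start site nearest the 5′ end of the gene held no match. The Lgmn match lay in chr12:102439043-102439342, a window further inside the gene. The stretches before the start sites of the 4 genes with a match of GAGGAAGT or TCACGTGA follow, 5′ to 3′ on the strand of the gene, with capitals marking the matches. The stretches are chr3:95526536-95526791 for Ctss, chr7:88277835-88278084 for Ctsc, chr7:142387828-142388077 for Ctsd and chr2:164833523-164833772 for Ctsa.
Ctss: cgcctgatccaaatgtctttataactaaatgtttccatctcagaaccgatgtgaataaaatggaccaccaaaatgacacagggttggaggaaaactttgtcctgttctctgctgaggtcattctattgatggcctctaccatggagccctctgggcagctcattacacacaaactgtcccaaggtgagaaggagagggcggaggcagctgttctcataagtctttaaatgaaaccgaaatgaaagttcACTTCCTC
Ctsc: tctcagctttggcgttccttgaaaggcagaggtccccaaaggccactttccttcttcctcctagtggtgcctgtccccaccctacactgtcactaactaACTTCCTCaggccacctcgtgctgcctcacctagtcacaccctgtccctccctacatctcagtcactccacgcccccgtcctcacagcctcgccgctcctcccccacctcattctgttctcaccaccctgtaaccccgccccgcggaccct
Ctsd: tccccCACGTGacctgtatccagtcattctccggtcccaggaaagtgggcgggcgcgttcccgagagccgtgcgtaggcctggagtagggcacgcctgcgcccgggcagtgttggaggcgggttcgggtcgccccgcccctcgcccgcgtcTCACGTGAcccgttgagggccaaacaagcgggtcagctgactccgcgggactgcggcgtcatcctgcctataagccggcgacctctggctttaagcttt
Ctsa: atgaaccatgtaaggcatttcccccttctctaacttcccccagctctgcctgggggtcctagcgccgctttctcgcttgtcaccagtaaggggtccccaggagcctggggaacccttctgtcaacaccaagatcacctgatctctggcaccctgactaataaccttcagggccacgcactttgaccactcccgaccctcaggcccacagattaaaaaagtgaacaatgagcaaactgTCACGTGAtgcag
In Ctss and Ctsc the match was on the opposite strand and so reads ACTTCCTC. It began 2 bases before the start site in Ctss, with 6 bases in the transcript, and 151 bases before it in Ctsc. In Ctsd, CACGTG began 245 bases before the start site and TCACGTGA 99 bases before it. In Ctsa, TCACGTGA began 13 bases before the second of its annotated start sites, and another TCACGTGA began 5 bases after it, with all 8 bases in the transcript and past the stretch printed here. A match is a description of the letters and no evidence of binding.

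Counts per library ranged from 13336746 to 16837265. They were scaled by edgeR's trimmed mean of M-values (TMM, factors 0.727 to 1.25) and are given as CPM, the counts per 1000000 counts of the scaled library total. All 10 genes passed the filter on low counts and were among the 16034 genes tested. Some libraries stood apart. Of 1835 genes with a median of 2 to 5 CPM, 29.6% had 0 counts in Control_1d replicate 1, 20.4% in IRR_6w replicate 3, 8.01% in IRR_6w replicate 4 and at most 1.58% in the other libraries. Control_6w replicate 3 held RNA of thymus (markers summed to 3216 CPM), and IRR_6w replicate 1 RNA of lung epithelium (525 CPM), atrium (3204 CPM) and white fat (2193 CPM). IRR_1d replicate 3 also held RNA of atrium (2272 CPM) and white fat (581 CPM), and white fat markers summed to 540.1 CPM in Control_6w replicate 3. Atrium markers summed to 571.5 CPM in Control_1d replicate 2, 389 CPM in Control_6w replicate 3 and at most 209 CPM in the remaining libraries. Brown fat markers summed to 1187 CPM in IRR_6w replicate 1, 907 CPM in Control_6w replicate 3 and at most 513 CPM elsewhere. Testis germ cell markers summed to 54.1 to 77.8 CPM in Control_6w replicates 1 to 3 and to at most 3.75 CPM elsewhere. The 10 cardiomyocyte markers summed to 5280 CPM in Control_6w replicate 3, 8551 CPM in IRR_6w replicate 1 and 17180 to 46610 CPM in the other libraries.

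Between genes, levels were compared per length, as FPKM, which is CPM divided by the deposited gene length in kilobases. In Control_6w hearts, Cst3 was highest at 306 ± 93.3 FPKM (SD, n = 4). Ctsd followed at 195 ± 47.6 FPKM and Ctsb at 93.3 ± 7.84 FPKM. The libraries of Cst3 and Ctsd overlapped, and each library of Ctsb lay below each of Ctsd. Lgmn (23.2 ± 6.87 FPKM), Ctss (21.8 ± 2.53 FPKM), Ctsz (20.6 ± 5.75 FPKM) and Ctsa (19.0 ± 2.33 FPKM) were next, and their ranges overlapped. Ctsc was at 13.1 ± 2.82 FPKM, overlapped with Lgmn, Ctsz and Ctsa, and lay below Ctss in every library. Ctsh at 8.04 ± 2.68 FPKM lay below Ctsc, and Ctsk at 2.43 ± 0.898 FPKM below Ctsh, without overlap.

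In IRR_6w hearts Ctss no longer lay within that cluster. At 69.1 ± 15.1 FPKM (SD, n = 4), it stood alone below Ctsb (140 ± 20.6 FPKM). Its lowest library was at 56.0 FPKM, above the highest of Ctsz (54.4 FPKM) and of Lgmn (50.3 FPKM). Cst3 was at 304 ± 76.1 FPKM and Ctsd at 173 ± 51.8 FPKM. Ctsk stayed lowest at 4.09 ± 2.26 FPKM. As a share of the summed FPKM of the 10 genes, Ctss made up 3.21 ± 0.759% in Control_6w and 8.32 ± 1.40% in IRR_6w, and its lowest share in IRR_6w, 6.45%, lay above its highest in Control_6w, 4.23%. Cst3 made up 42.9 ± 4.17% and 36.1 ± 4.02%, with overlapping ranges.

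**Figure D1:**
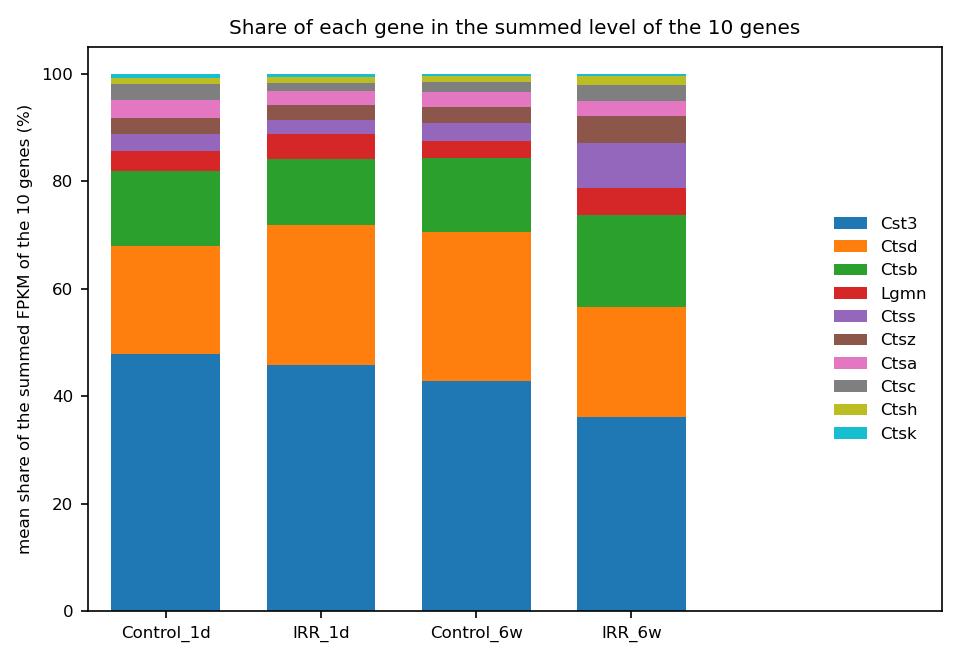
Mean share of each gene in the summed FPKM of the 10 genes (y axis, percent) in the 4 groups (x axis), as stacked bars from 0 to the full sum. Cst3, Ctsd and Ctsb fill most of each bar, and the Ctss segment is widest in IRR_6w.

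IRR_6w was compared with Control_6w to ask what differed late after irradiation. Ctss rose, and it was the only 1 of the 10 genes called at a Benjamini-Hochberg adjusted p under 0.05. In Control_6w hearts Ctss was at 25.3, 29.6, 29.8 and 33.7 CPM, and in IRR_6w hearts at 76.0, 123, 92.3 and 84.0 CPM. The lowest irradiated heart was above 2 times the highest control. The log2 fold change was 1.66 (SE 0.256, 95% interval 1.12 to 2.21, adjusted p = 0.00861 by edgeR's quasi-likelihood test), which is 3.17-fold, and Ctss ranked 16 among 16034 genes by p. For comparison, 133 genes (0.829%) were called in either direction. The call held without each of the 14 libraries in turn, with adjusted p at most 0.0415. Without Control_1d replicate 1 and IRR_6w replicates 3 and 4 together, the libraries with the most genes at 0 counts, the log2 fold change was 1.75 and the call was lost (adjusted p = 0.0937).

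The exopeptidase genes and legumain were higher in most irradiated hearts but did not pass the adjusted threshold. Ctsz was at 20.2, 36.7, 36.5 and 25.2 CPM in Control_6w and at 78.3, 64.0, 40.9 and 56.3 CPM in IRR_6w, without overlap. Its log2 fold change was 1.01 (SE 0.302, adjusted p = 0.141). Ctsc was at 98.7, 74.8, 60.1 and 69.6 CPM in Control_6w and at 98.1, 131, 155 and 168 CPM in IRR_6w. Its groups met only at IRR_6w replicate 1 and Control_6w replicate 1, and the log2 fold change was 0.86 (SE 0.245, adjusted p = 0.116).

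Lgmn was at 52.7, 65.8, 31.8 and 65.5 CPM in Control_6w and at 80.2, 117, 99.5 and 85.8 CPM in IRR_6w. Every irradiated heart lay above every control, with a log2 fold change of 0.83 (SE 0.292, adjusted p = 0.243). Ctsh was at 35.6, 44.6, 19.3 and 45.1 CPM in Control_6w and at 71.4, 62.2, 55.4 and 50.8 CPM in IRR_6w, also without overlap. Its log2 fold change was 0.73 (SE 0.287, adjusted p = 0.312). For Lgmn and Ctsh, and also for Ctsc, Ctsa, Ctsd and Cst3, the lowest control was Control_6w replicate 3, the heart with thymus RNA.

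Ctsb, the most abundant cysteine cathepsin gene, ran from 523 to 632 CPM in Control_6w and from 680.4 to 981 CPM in IRR_6w. These groups did not overlap either, and the log2 fold change was 0.59 (SE 0.243, adjusted p = 0.347). Ctsk ran from 2.43 to 4.97 CPM in Control_6w and from 1.84 to 9.71 CPM in IRR_6w. The lowest and the highest values were both in irradiated hearts, and the log2 fold change of 0.76 had an SE of 0.541 (adjusted p = 0.603). Ctsa ran from 73.5 to 96.7 CPM in Control_6w and from 93.1 to 137 CPM in IRR_6w, with a log2 fold change of 0.29 (SE 0.193, adjusted p = 0.574).

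Cst3 and Ctsd gave no difference beyond the spread between hearts. Cst3 was at 353, 530.2, 248 and 416 CPM in Control_6w and at 378, 509.9, 375 and 275 CPM in IRR_6w. The log2 fold change was −0.01 (SE 0.280, 95% interval −0.61 to 0.59, adjusted p = 0.993), and its sign depended on the scaling. Ctsd was at 421, 572, 319 and 521 CPM in Control_6w and at 479, 459, 466 and 225 CPM in IRR_6w. Its log2 fold change was −0.17 (SE 0.413, adjusted p = 0.894) and was 0.08 with scaling to library totals. IRR_6w replicate 4, with the low Ctsd, is the heart in which 8.01% of 1835 moderately expressed genes had 0 counts, and the part of this in the low value was not tested.

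Of the 10 genes, 8 were higher and 2 lower in IRR_6w, with a median log2 fold change of 0.75 beside −0.09 over all genes tested. Scaling by library totals moved the median over all genes to 0.14. At an unadjusted p under 0.05, 6 of the 10 were higher (Ctsb, Ctsc, Ctsh, Ctss, Ctsz and Lgmn), beside 6.96% of all genes tested. Every IRR_6w heart lay above every Control_6w heart for 5 of the 10 (Ctsb, Ctsh, Ctss, Ctsz and Lgmn), beside 4.08% of all genes.

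**Figure D2:**
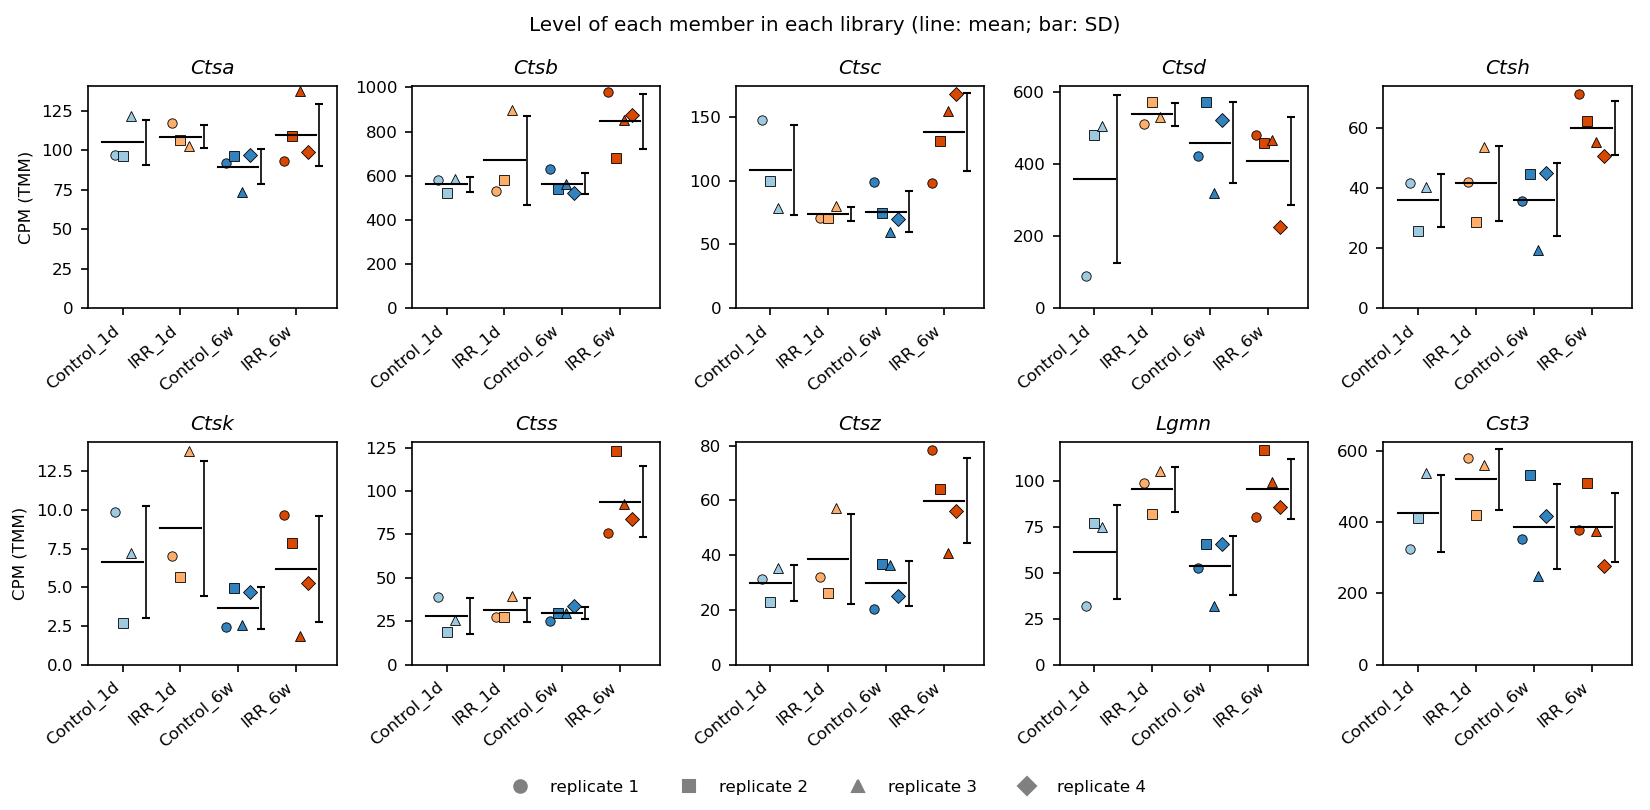
Level of each gene (y axis, CPM with TMM scaling, from 0) in each library of the 4 groups (x axis), with marker shape for the replicate number, a line for the group mean and a bar for the SD. Ctss in the 4 IRR_6w hearts, at 76.0 to 123 CPM, is above all other libraries, while Cst3 overlaps in every pair of groups.

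IRR_1d was compared with Control_1d to ask what differed within a day of irradiation. None of the 10 genes was called by edgeR, none reached an unadjusted p under 0.05, beside 4.26% of all genes, and none was called by DESeq2 or limma voom. Over all genes 4 (0.0249%) were called. Ctss was at 39.1, 18.9 and 25.7 CPM in Control_1d and at 27.7, 27.6 and 39.6 CPM in IRR_1d. The groups overlapped only through Control_1d replicate 1, the highest control, and 2 of the 3 controls lay below every irradiated heart. The log2 fold change of Ctss was 0.17 (SE 0.293, 95% interval −0.45 to 0.80, adjusted p = 0.988). It was 0.50 without Control_1d replicate 1 and −0.02 without Control_1d replicate 2 or without IRR_1d replicate 3, and was called in none of these fits.

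The members that differed most at 1 day were Lgmn, Ctsd and Ctsc. Lgmn was at 31.9, 77.3 and 75.0 CPM in Control_1d and at 98.7, 82.0 and 106 CPM in IRR_1d, with a log2 fold change of 0.64 (SE 0.337, adjusted p = 0.988). Ctsd was at 89.9, 480.3 and 503 CPM in Control_1d and at 509.6, 572 and 529 CPM in IRR_1d, with a log2 fold change of 0.59 (SE 0.479, adjusted p = 0.988). The groups did not overlap for these 2 of the 10 genes, beside 10.7% of all genes tested. The low value of each came from Control_1d replicate 1, in which 29.6% of 1835 moderately expressed genes had 0 counts. Without that heart the log2 fold change was 0.33 for Lgmn and 0.13 for Ctsd.

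Ctsc was the only 1 of the 10 with a negative log2 fold change at 1 day. It was at 147, 99.5 and 78.8 CPM in Control_1d and at 70.7, 71.0 and 80.1 CPM in IRR_1d, and the groups overlapped. The log2 fold change was −0.55 (SE 0.282, adjusted p = 0.988), and −0.27 without Control_1d replicate 1, which held the highest value. The 3 irradiated hearts lay close together, with a coefficient of variation of 7.23% beside 32.3% in the controls. The control figure includes the 147 CPM of Control_1d replicate 1. IRR_1d replicate 3, the heart with RNA of atrium and white fat, held the highest IRR_1d values of Ctss, Ctsb (900 CPM), Ctsc, Ctsh (53.7 CPM), Ctsk (13.8 CPM), Ctsz (57.4 CPM) and Lgmn (106 CPM), and the part of that RNA in them was not tested.

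**Figure D3:**
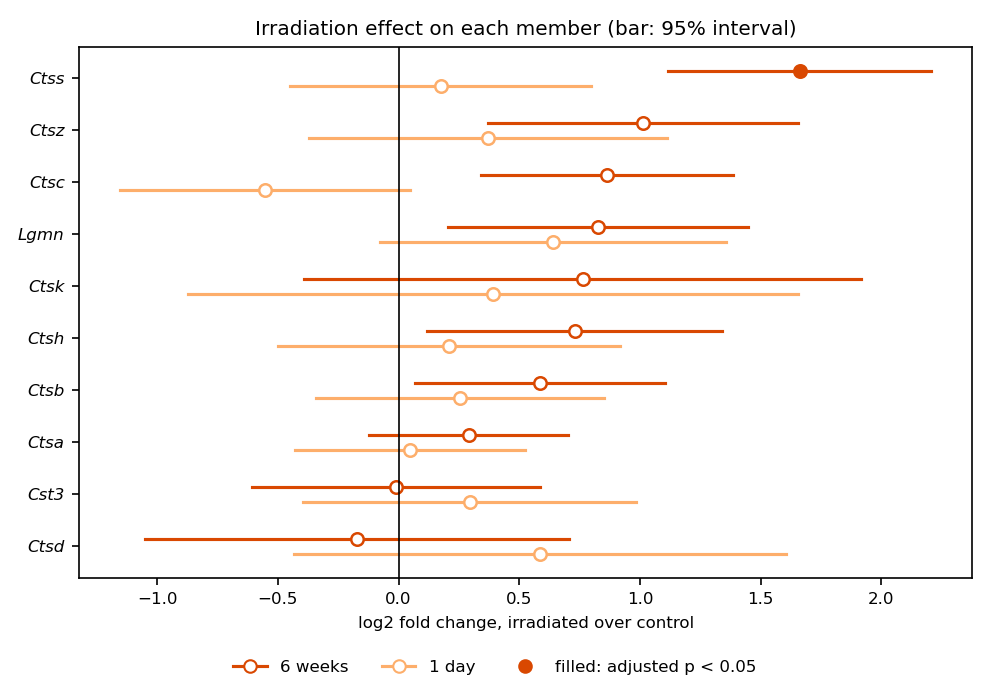
Log2 fold change of each gene, irradiated over control (x axis), with its 95% interval from the edgeR fit, at 6 weeks and at 1 day, with genes ordered by the 6-week value (y axis). Only Ctss at 6 weeks has a filled point, for an adjusted p under 0.05, with an interval from 1.12 to 2.21, while the intervals of Ctsd, Cst3, Ctsa and Ctsk include 0 at both times.

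IRR_6w was also compared with IRR_1d, which shares the IRR_6w hearts with the comparison above. Ctss was again the only 1 of the 10 genes called, with a log2 fold change of 1.57 (SE 0.282, adjusted p = 0.0412), beside 27 genes (0.168%) called overall. The 3 IRR_1d hearts, at 27.6 to 39.6 CPM, lay below all IRR_6w hearts. This call was fragile. It held without Control_1d replicate 1, Control_6w replicate 3 or IRR_6w replicate 1, and was lost without any of the other 11 libraries, with adjusted p from 0.0594 to 0.445. Of 12 other fits it held in 6. It was lost with limma voom (adjusted p = 0.0558), no filter (0.065), the legacy quasi-likelihood (0.0754), edgeR on the groups compared (0.08), without the 3 libraries with many genes at 0 counts (0.184) and with the replicate block (0.185).

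Ctsc had a log2 fold change of 0.90 between the irradiated groups (SE 0.268, adjusted p = 0.344). Its 3 IRR_1d hearts, at 70.7 to 80.1 CPM, lay below the 4 IRR_6w hearts, at 98.1 to 168 CPM. Groups were without overlap and higher at 6 weeks for 2 of the 10 genes, Ctss and Ctsc, beside 5.47% of all genes, and the same 2 had an unadjusted p under 0.05, beside 5.16% of all genes. Ctsd was without overlap in the other direction, at 509.6 to 572 CPM in IRR_1d and 225 to 479 CPM in IRR_6w, beside 3.84% of all genes. Its log2 fold change was −0.40 (SE 0.444, adjusted p = 0.89). Lgmn stood at about the same level in both irradiated groups, 95.5 ± 12.2 CPM (SD, n = 3) and 95.6 ± 16.4 CPM (SD, n = 4).

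Between Control_6w and Control_1d hearts, edgeR called 0 of the 10 genes and 0% of all genes, and 0 of the 10 reached an unadjusted p under 0.05, beside 7.95% of all genes. DESeq2 and limma voom called none of the 10 either. The groups of controls overlapped for all 10 genes, while 5.92% of all genes had groups without overlap in either direction. Ctss was at 27.9 ± 10.3 CPM (SD, n = 3) and 29.6 ± 3.43 CPM (SD, n = 4).

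The change in the irradiation effect from 1 day to 6 weeks was tested as an interaction. It was 1.49 on the log2 scale for Ctss (SE 0.387, unadjusted p = 0.00157, adjusted p = 0.542) and 1.42 for Ctsc (SE 0.374, unadjusted p = 0.00174, adjusted p = 0.55) by edgeR's quasi-likelihood test. These were the only 2 of the 10 genes with an unadjusted p under 0.05, beside 2.93% of all genes higher at that limit, and neither passed the adjustment, which 2 genes (0.0125%) did. Without Control_1d replicate 1 the values were 1.16 and 1.13. For the other 8 genes the change ran from −0.76 to 0.64.

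Cystatin C binds cathepsin S tightly, so the RNA of both was set side by side in each heart. The ratio of Ctss to its inhibitor, in FPKM, was 0.188 to 0.285 in IRR_6w hearts. It was 0.0520 to 0.112 in Control_6w, 0.0446 to 0.0660 in IRR_1d and 0.0428 to 0.113 in Control_1d, so every IRR_6w heart lay above the other 10. The 2 highest of those, Control_1d replicate 1 and Control_6w replicate 3, are libraries that stood apart, and both had the lowest Cst3 of their group. Control_1d replicate 1 also had the highest Ctss of its group (39.1 CPM). The highest IRR_6w ratio, 0.285, was likewise in a library that stood apart, replicate 4, with 8.01% of moderately expressed genes at 0 counts. Its Cst3, at 275 CPM, was the lowest of its group. The ratio of Lgmn to Cst3 separated in the same way. It was 0.116 to 0.170 in IRR_6w and at most 0.106 in IRR_1d, 0.102 in Control_1d and 0.0857 in Control_6w. For each of the other proteases, the range of the ratio in IRR_6w overlapped that of another group. Levels of RNA do not give the amount of active enzyme.

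Macrophages are rich in these proteases, and most of their markers were, like Ctss, higher in IRR_6w than in Control_6w. Of 16 macrophage and monocyte markers, 15 were higher and 1 (Cd163) lower in IRR_6w, beside 43.6% of all genes higher by value. By edgeR 3 were called, all higher, beside 0.829% of all genes called in either direction. These were the monocyte chemokine receptor gene Ccr2 (log2 fold change 3.49, adjusted p = 0.00861), Adgre1, which encodes F4/80 (1.97, adjusted p = 0.033), and the mannose receptor gene Mrc1 (1.12, adjusted p = 0.038). Leaving out each of the 14 libraries in turn kept the call of Ccr2 in 14 fits, of Adgre1 in 8 and of Mrc1 in 4. The 16 summed to 346 to 824 CPM in Control_6w and to 1332 to 1745 CPM in IRR_6w. The low control was replicate 3, and the other 3 controls were at 800 to 824 CPM. The sums were 722 to 985 CPM in Control_1d and 818 to 957 CPM in IRR_1d. Each IRR_6w heart lay above every other heart in both this sum and Ctss. In bulk RNA, more cells of a type and more RNA per cell cannot be told apart.

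The ratio of Ctss to each of the 16 markers, in FPKM, gives Ctss against macrophage and monocyte genes of the same heart. The median ratio was higher in IRR_6w than in Control_6w for 12 markers and lower for 4 (Adgre1, Ccr2, Fcgr1 and Itgam), and the groups overlapped for 14. Without overlap it was higher against Cd163, at 9.42 to 31.6 beside 2.0 to 7.30, and lower against Ccr2, at 4.26 to 13.2 beside 18.7 to 31.6. Against the sum of the 16 it was 0.0621 to 0.0856 in IRR_6w and 0.0418 to 0.116 in Control_6w. These overlaps rested in part on Control_6w replicate 3, the heart with thymus RNA. Without it the ratio was higher without overlap for 5 markers (Lyz2, Csf1r, C1qc, Cd163 and Mertk), lower for Ccr2 and overlapping for 10, and against the sum the controls were at 0.0418 to 0.0538, below every IRR_6w heart. The median was then higher for 14 of the 16. Fibroblast markers summed to 1342 to 3809 CPM in Control_6w and 2764 to 3592 CPM in IRR_6w, and none of the 10 was called. The 10 cardiomyocyte markers were all lower by value in IRR_6w, with 0 called, and their sums overlapped (5280 to 46610 CPM and 8551 to 32750 CPM). Control_6w replicate 3 set the lowest control value of both, and without it the controls began at 3139 CPM for fibroblast and 25920 CPM for cardiomyocyte markers. The part of these cell types in the levels of the proteases was not tested.

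**Figure D4:**
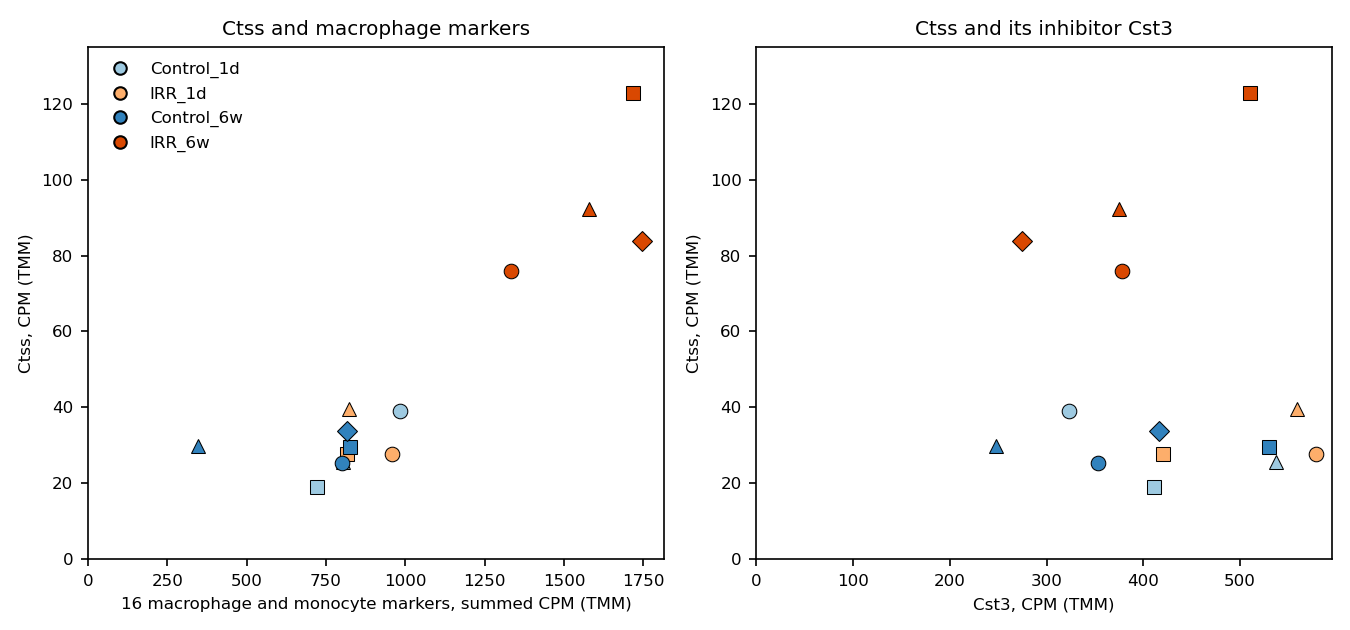
Ctss (y axes, CPM with TMM scaling, from 0) in each of the 14 libraries against the summed CPM of 16 macrophage and monocyte markers (left, x axis) and against Cst3 (right, x axis, CPM), with color for the group and shape for the replicate. The 4 IRR_6w hearts lie apart at the upper right on the left panel, at 1332 to 1745 CPM of markers, and spread over the range of Cst3 on the right panel.

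The partners of cathepsin S in class II presentation were given by 8 genes. All 8 were higher in IRR_6w, beside 43.6% of all genes, and 2 were called by edgeR, beside 0.829% of all genes. Called were H2-Eb1 (log2 fold change 1.35, adjusted p = 0.0223) and H2-Aa (1.14, adjusted p = 0.0372), which encode chains of the class II molecules. Cd74, which encodes the invariant chain and is named here for that role, ran from 140.2 to 274 CPM in Control_6w and from 337 to 607 CPM in IRR_6w (0.94, adjusted p = 0.108). Of the 8, 7 had an unadjusted p under 0.05, beside 6.96% of all genes higher at that limit, and the median was 0.95. Without each library in turn, H2-Eb1 was still called in 9 of 14 fits and H2-Aa in 3.

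At 1 day, 7 of the 8 were lower by value in IRR_1d and 0 were called, with 4 lower at an unadjusted p under 0.05 by edgeR (beside 1.61% of all genes), 5 lower without overlap (beside 4.14%) and a median of −1.08. The other one, Ifi30, which encodes a thiol reductase of the lysosome, was at 4.63 to 7.54 CPM in Control_1d and 8.66 to 13.6 CPM in IRR_1d, without overlap (0.87, adjusted p = 0.988). H2-Eb1 was at 38.0 to 61.6 CPM in Control_1d and at 15.0 to 22.0 CPM in IRR_1d (−1.43, adjusted p = 0.207), and H2-Aa at 46.0 to 77.6 CPM and 20.5 to 26.6 CPM (−1.36, adjusted p = 0.22). The change in effect was called by edgeR for both, beside 0.0125% of all genes. It was 2.79 for H2-Eb1 (adjusted p = 0.0396) and 2.50 for H2-Aa (adjusted p = 0.0498), but leaving out each library in turn kept these calls in only 3 and 2 of 14 fits. From IRR_1d to IRR_6w, 5 of the 8 were called higher, beside 0.168% of all genes called in either direction. They were led by H2-Eb1 (3.32), H2-Aa (3.11) and H2-Ab1 (3.03), whose calls held in all 14 of those fits, while that of Cd74 held in 12 and that of the class II regulator gene Ciita in 1. All 8 were also higher in Control_6w than in Control_1d, with a median of 0.57 and 0 called. Of 6 dendritic cell markers, 5 were lower and 1 higher in IRR_1d than in Control_1d, with 0 called and a median of −0.71. They summed to 45.4 to 67.3 CPM in Control_1d and to 27.0 to 42.3 CPM in IRR_1d, without overlap. At 6 weeks, when all 8 class II genes were higher, 3 of the 6 markers were higher and 3 lower, with 0 called and a median of 0.15. Their sums then overlapped, at 26.34 to 67.95 CPM in Control_6w and 29.18 to 53.98 CPM in IRR_6w. Their part in the class II values was not tested.

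Of 13 other lysosomal proteases, 11 were tested at 6 weeks, 9 were higher and 2 lower, and 0 were called. At an unadjusted p under 0.05 by edgeR, 3 were higher (beside 6.96% of all genes). These were the carboxypeptidase genes Prcp (log2 fold change 1.13, adjusted p = 0.0666) and Scpep1 (1.03, adjusted p = 0.0972) and the aspartic protease gene Napsa (2.85, adjusted p = 0.065). Napsa, a gene of lung and kidney epithelium, was at 1.80 to 5.84 CPM in IRR_6w and at most 0.967 CPM in Control_6w. Its highest value was in IRR_6w replicate 3, and the lung RNA named above was in IRR_6w replicate 1. The part of lung RNA in Napsa was not tested. The median of the 11 was 0.50. Ctsl, which encodes cathepsin L, a close relative of cathepsin S, was chosen after its values were seen and ran from 113 to 251 CPM in Control_6w and from 129 to 193 CPM in IRR_6w.

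Of 10 other cathepsin inhibitors, 5 were tested, 4 were higher and 1 lower, and 0 were called or had an unadjusted p under 0.05 by edgeR. Their smallest p belonged to the serpin genes Serpinb1a (0.68, adjusted p = 0.538) and Serpina3g (0.98, adjusted p = 0.645) and to the cystatin gene Cstb (−0.97, adjusted p = 0.611). Their median was 0.17.

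Among 32 other lysosomal hydrolases and their activators, 30 were higher and 2 lower at 6 weeks, with a median of 0.53, while 43.6% of all genes were higher by value. The α-mannosidase gene Man2b1 was called, at 53.2 to 66.3 CPM in Control_6w and 86.5 to 158 CPM in IRR_6w (log2 fold change 1.01, adjusted p = 0.0497), and 11 had an unadjusted p under 0.05, all of them higher, beside the 6.96% of all genes. The call of Man2b1 held in 3 of the 14 fits that left out a library. Of 19 genes of lysosomal membrane and sorting proteins, 15 were higher and 4 lower, with 0 called and a median of 0.26. Of these 19, 4 were higher at an unadjusted p under 0.05 by edgeR, beside the same 6.96%. Those with the smallest p were the metal transporter gene Slc11a1 (0.97, adjusted p = 0.314), the mannose 6-phosphate receptor gene Igf2r (0.74, adjusted p = 0.328) and Lamp2 (0.87, adjusted p = 0.37). At 1 day, 27 of the 32 hydrolases and activators were higher and 5 lower, with a median of 0.27 and 0 called. Of the 19, 13 were higher and 6 lower at 1 day, with a median of 0.27 and 0 called. Over all genes 55.5% were higher by value at 1 day.

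The proton pump that acidifies the lysosome was given by 15 genes, of which 10 were higher and 5 lower, with 0 called and a median of 0.17. The pump had 1 gene higher at an unadjusted p under 0.05 by edgeR, beside 6.96% of all genes. Its smallest p were those of Atp6v1a (0.94, adjusted p = 0.349), Atp6v1d (−0.43, adjusted p = 0.491) and Atp6v1h (0.51, adjusted p = 0.611). Of the 4 transcription factor genes of the TFEB family, 2 were higher and 2 lower, with 0 called. Tfec was at 0.306 to 1.31 CPM in Control_6w and 1.21 to 4.36 CPM in IRR_6w (2.12, adjusted p = 0.137), Tfe3 had 0.25 (adjusted p = 0.793) and Tfeb −0.48 (adjusted p = 0.809).

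Matrix proteins that cathepsin K can cut were given by 5 genes, and all 5 were higher at 6 weeks with 0 called and a median of 1.38. At an unadjusted p under 0.05 by edgeR, 4 were higher, beside 6.96% of all genes. At 1 day all 5 were also higher, with 0 called and a median of 0.78. Sparc ran from 297 to 586 CPM in Control_6w and from 693 to 2126 CPM in IRR_6w (log2 fold change 1.60, adjusted p = 0.0594), and Col3a1 from 177 to 340 CPM and 643 to 997 CPM (1.57, adjusted p = 0.0621). Col1a2 had 1.26 (adjusted p = 0.14). Ctsk itself stayed at or below 13.8 CPM in every heart.

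Over the 14 hearts, the genes whose log2 CPM was most like that of Ctss were Angpt2 (Pearson r = 0.948), Ccl8 (0.940) and Sirpb1a (0.933). Within groups, after taking out the group means, the values were 0.716, 0.650 and 0.342. For Ctsc the most alike were Pde4b, Cybb and Tlr2 (0.945, 0.937 and 0.909), for Ctsh Tgfbi, Ncf1 and Arrb1 (0.933, 0.917 and 0.908), and for Ctsz Isg15, Tmem176b and Arpc1b (0.907, 0.902 and 0.895). Within groups those 9 stayed at 0.824 or above. For Ctsb they were Scpep1, Tgfbr2 and Vim (0.941, 0.930 and 0.927), for Lgmn Selenon, Csf1 and P2ry6 (0.947, 0.940 and 0.938), and for Ctsk Pdlim4, Nucb2 and Il6st (0.922, 0.907 and 0.905).

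For Ctsd the most alike were Cacng7, Rbpms2 and Mrps34 (0.973, 0.968 and 0.966), with Spearman's rho of only 0.697, 0.574 and 0.758, and the low Control_1d replicate 1 and IRR_6w replicate 4 are among the points. For Cst3 they were Nfic, Zfp316 and Phldb1 (0.936, 0.934 and 0.926), and for Ctsa Gm26795, Cd276 and Adcy9 (0.874, 0.864 and 0.855). The points of each correlation share library, scaling and RNA quality, and the values are descriptions without a test.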

How the data were processed

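Total RNA of 14 hearts was sequenced, 1 library per mouse. The authors checked reads with FastQC 0.11.8, trimmed them with Trim Galore 0.6.1, aligned them to mm10 with STAR 2.5.0a and deposited whole-number counts per gene from HTSeq, not normalized, with a length for each gene. The annotation release is not given in the sources used here. From these counts, genes were filtered by filterByExpr, scaled by TMM and tested with edgeR 4.0.16 (R 4.3.3), quasi-likelihood, in 1 model of the 4 groups, with Benjamini-Hochberg adjustment over 16034 genes. A gene was called at an adjusted p under 0.05. The correlations used log2 CPM with a prior count of 2. DESeq2 1.42.0, limma 3.58.1, other scalings and filters, a replicate block and left-out libraries were alternatives. On simulated data the fits recovered the sizes put in but called few of the smaller changes, and in each of 20 simulated data sets the share of false calls by edgeR at 6 weeks was above the nominal rate, so that adjusted p-values near the threshold are less certain than they read. By counting alone, a level is known best where counts are high, and 0 counts allow up to 3.

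Members and lists were chosen with earlier results of these data known. All 10 members are named. Of each pathway list the text names genes called in a comparison, or else the 3 with the smallest p at 6 weeks. Lists of cell type markers are given by counts or sums. For macrophages and monocytes, single markers are also named, with ratios of Ctss to them. Lists for endothelial cells, neutrophils, mast cells and thymic epithelium are not described. Intervals cover the spread between the mice in the fit.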

Additional observations from a re-analysis of the deposited data

Results flagged for a closer look

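Ctsd in IRR_6w replicate 4 was at 224.8 CPM, while the nearest of the other 3 hearts of its group was at 458.5 CPM. This gap takes up 0.920 of the range of the group, past the limit of Dixon's test for 4 samples. In all, 20 pairs of a gene and a group of 4 hearts were looked at, and chance flags about 1 in 20. In this heart 8.01% of 1835 genes with a median of 2 to 5 CPM had 0 counts, and whether that bears on Ctsd was not tested.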

How the results depend on the processing

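At 6 weeks, 2 of the 10 genes were called with library totals (Ctss and Lgmn, the latter at 1.09, adjusted p = 0.0486) and with DESeq2 on all libraries (Ctss and Ctsc), 6 at an unadjusted p, and 0 without the 3 libraries with many genes at 0 counts, an alternative chosen after seeing the data. Between the irradiated groups, 2 were called with DESeq2 on the groups compared, without Control_6w replicate 3 and IRR_6w replicate 1 and at an unadjusted p, and 0 with no filter, limma voom, edgeR on the groups compared, the legacy quasi-likelihood, the replicate block and without the 3 libraries with many zeros. Leaving out each library in turn gave 0 to 1. For the change in effect, 2 were called at an unadjusted p.

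The log2 fold change of Cst3 at 6 weeks was 0.24 with library totals, 0.0074 with DESeq2 size factors, 0.0051 with a filter at 1 CPM, 0.0086 with DESeq2, 0.0080 with voom, 0.0023 with edgeR on the groups compared, 0.20 without the 3 libraries with many zeros, and −0.18 to 0.16 leaving out each library in turn. That of Ctsd was 0.076 with library totals, 0.034 without those 3 and −0.31 to 0.029 leaving out each library in turn, and that of Ctss at 1 day was −0.016 to 0.50. The causes were not tested. Library totals moved the median of all genes to 0.14 at 1 day, 0.14 at 6 weeks, 0.30 between irradiated groups, 0.28 between controls and 0.0038 for the change in effect. The number of genes called at 6 weeks was 133, from 0 without those 3 libraries and 18 with voom to 361 with DESeq2. Between the irradiated groups it was 27, from 3 to 385, and at 1 day 4, from 0 to 60. Replicate numbers did not pair the hearts (r over 0.1 in 3 of 19 pairs, range −0.36 to 0.42, 2 of 14 hearts most like their own number), and with the replicate block 80 genes were called at 6 weeks, 1 at 1 day and 7 between the irradiated groups. In the other 32 member values of 816 fits, none was called and 17 changed sign at least once. The calls of genes outside the 10 lost significance in part of the fits: without single libraries (adjusted p up to 0.162 for Man2b1, 0.116 for H2-Aa, 0.0878 for H2-Eb1, 0.115 for Adgre1 and 0.128 for Mrc1 at 6 weeks), and in 6, 6, 4, 5 and 6 of 12 other fits. Genes under a few CPM, such as Ctsk and Tfec, are limited by counting.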
